A study of Mus musculus with 16 samples.

Results

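Nuclear receptors are transcription factors that bind DNA and, in most cases, a small fat-soluble ligand such as a steroid, thyroid hormone, vitamin A or D derivative, fatty acid, bile acid or oxysterol. Many of them act as heterodimers with a retinoid X receptor, and others are orphans for which no ligand is established. In the small intestine they are known for their part in lipid absorption, vitamin uptake, drug metabolism and the daily rhythm of the epithelium. The genes described here are 31 nuclear receptor genes of 45513 genes with counts, chosen by name from the receptor family, and each symbol was matched to 1 Ensembl identifier.

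The libraries were made to find the transcripts that distinguish Atoh1-expressing secretory cells from the rest of the small intestinal epithelium. The data comprised 16 RNA libraries of sorted live EpCAM+ cells, with a tdTom+ and a tdTom- library from each of 8 mice, and the total count per library ranged from 17116405 to 25323567. All animals were Atoh1(WT)CreERT2 R26RtdTom mice, adults of both sexes on a C57BL/6 background per the methods, and all received tamoxifen. The labels, like the methods for the secretory signature, give a daily dose of 1 mg for 3 days, while the general RNA sequencing methods describe a single larger dose the day before tissue was taken. In this model CreERT2, a recombinase fused to the ligand-binding part of the human estrogen receptor, is made downstream of Atoh1, and it switches on the red reporter tdTomato permanently in the cell and its progeny. Both fractions therefore came from animals that carried the transgene and had been given an estrogen receptor ligand, and there was no group without tamoxifen.

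Atoh1, the secretory lineage factor whose locus drives CreERT2, had 62.5 ± 12.7 CPM (TMM-normalized counts per 1000000) among tdTom+ libraries against 0.718 ± 0.247 CPM among tdTom- libraries. Here and below a mean is followed by its SD over 8 libraries, and of paired values the tdTom+ value stands first. All 8 goblet and all 8 Paneth cell markers were higher in tdTom+ cells, and all 8 absorptive markers were lower. The summed level of the absorptive markers was 2078 to 6042 CPM in tdTom+ and 12577 to 33480 CPM in tdTom- libraries, with mouse 7 the lowest of the tdTom- libraries. All 8 enteroendocrine markers and the 6 tuft markers that passed the expression filter were also higher in tdTom+ cells. Of 8 stem cell markers 5 were higher in tdTom+ cells, none was lower and 3 did not pass, with a median log2 fold change of 0.62. Epcam, the surface protein used in the sort, stood at 942 ± 56.6 and 1019 ± 53.8 CPM. Of the 8 epithelium markers, Epcam among them, 4 were higher in tdTom+ cells, 1 was lower and 3 did not pass. These counts are to be read against the 25.8% higher and 30.0% lower of all genes tested. The summed level of the epithelium markers was 7000 to 9573 CPM in tdTom+ and 5850 to 6549 CPM in tdTom- libraries. Of 8 stromal markers 5 were below the filter and 2 did not pass. The other stromal marker, the intermediate filament gene Vim, was higher in tdTom+ cells without overlap at 23.4 ± 8.18 and 2.30 ± 1.14 CPM. These fractions are mixtures of cell types, so a receptor at a lower level in one fraction may be made by fewer cells or be present at less RNA per cell, which cannot be told apart in bulk RNA.

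All 31 receptor genes passed the expression filter, which asks for a minimum count in at least as many libraries as a fraction holds, so none could be called absent from both fractions. In tdTom- cells 3 receptors, Esr1, Rora and Rarg, had a mean under 1 CPM, and Esr1 and Rora would not have passed on their tdTom- libraries, so their place in the list depended on the tdTom+ level. A gene was called when its adjusted p in the quasi-likelihood test of edgeR, with the mouse as block, was under 0.01. Of the 31 receptors 5 were higher in tdTom+ cells (16.1%, against 25.8% of the 15323 genes tested) and 21 were lower (67.7%, against 30.0%). In all 26 were called (83.9%, against 55.8%), and the remaining 5 did not pass. The median log2 fold change of tdTom+ over tdTom- was -0.51 over the receptors and 0.02 over all genes tested. A called receptor was taken to mark a fraction when none of its 8 libraries overlapped the 8 of the other fraction. By that rule Esr1, Rora and Rarg marked tdTom+ cells (3 receptors, against 14.6% of all genes). The tdTom- fraction was marked by 13 receptors (41.9%, against 17.0% of all genes), which were Nr1i3, Nr1h3, Hnf4g, Nr1i2, Nr1d1, Esrra, Ppara, Thra, Vdr, Nr3c1, Nr5a2, Rxra and Nr2c1. The members were chosen with results of these data known, so these shares describe the list and were not tested as a set.

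**Figure D1:**
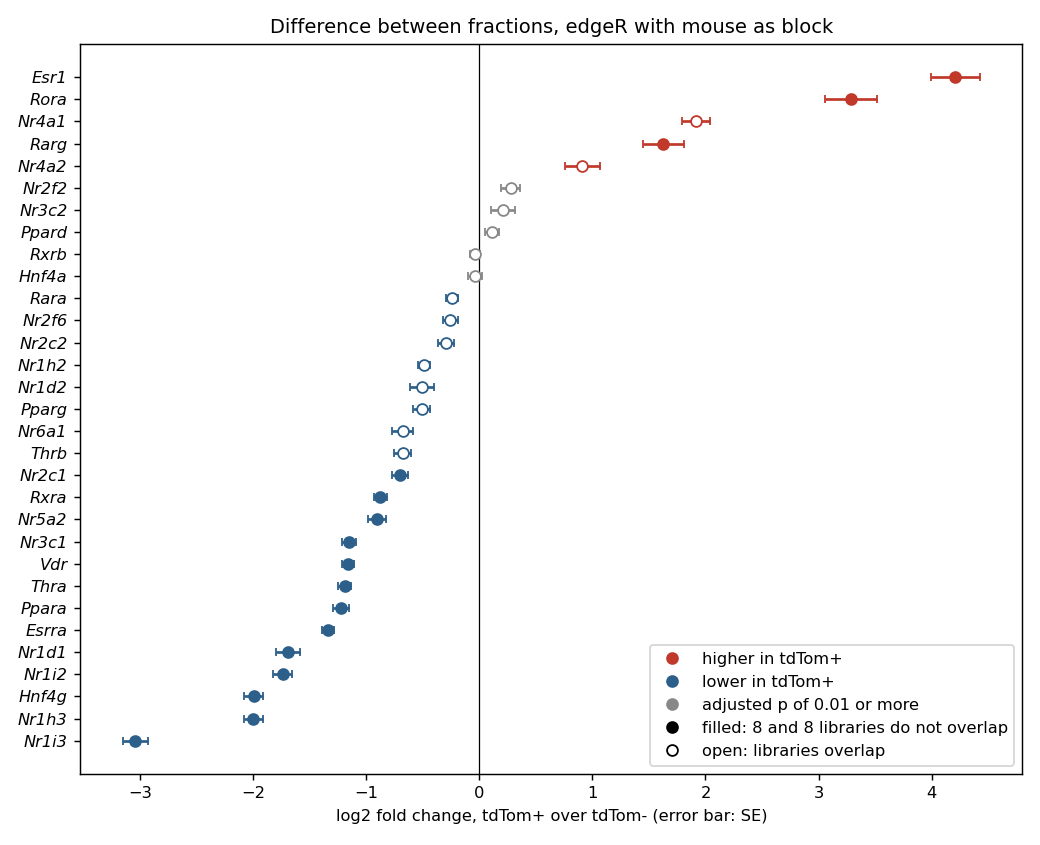
Log2 fold change of tdTom+ over tdTom- cells (x axis) for the 31 receptor genes (rows), from edgeR with the mouse as block, with SE bars. Filled points are receptors whose 8 tdTom+ and 8 tdTom- libraries do not overlap, 3 on the higher side and 13 on the lower side, and gray points are the 5 receptors that did not pass.

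The order of levels within each fraction was compared per length, as TMM-normalized CPM per kilobase of exon (RPKM). Hnf4a ranked first of the 31 in both fractions, at 123 and 126 RPKM. Behind it stood Esrra at 34.7, Ppard at 32.6, Vdr at 31.8 and Hnf4g at 27.2 RPKM in tdTom+ cells. In tdTom- cells Hnf4g at 109, Esrra at 87.3, Vdr at 70.7 and Nr1i2 at 44.2 RPKM came next. Ppard was therefore at rank 3 in tdTom+ and rank 7 in tdTom- cells without passing the test itself, whereas Nr1i2 went from rank 5 in tdTom- to rank 10 in tdTom+ cells. Nr4a1 moved furthest in the other direction, from rank 24 at 4.28 RPKM in tdTom- to rank 8 at 16.1 RPKM in tdTom+ cells. The last places belonged to Rarg, Esr1 and Rora in both fractions, so the 3 receptors that marked tdTom+ cells were also the least abundant of the list.

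**Figure D2:**
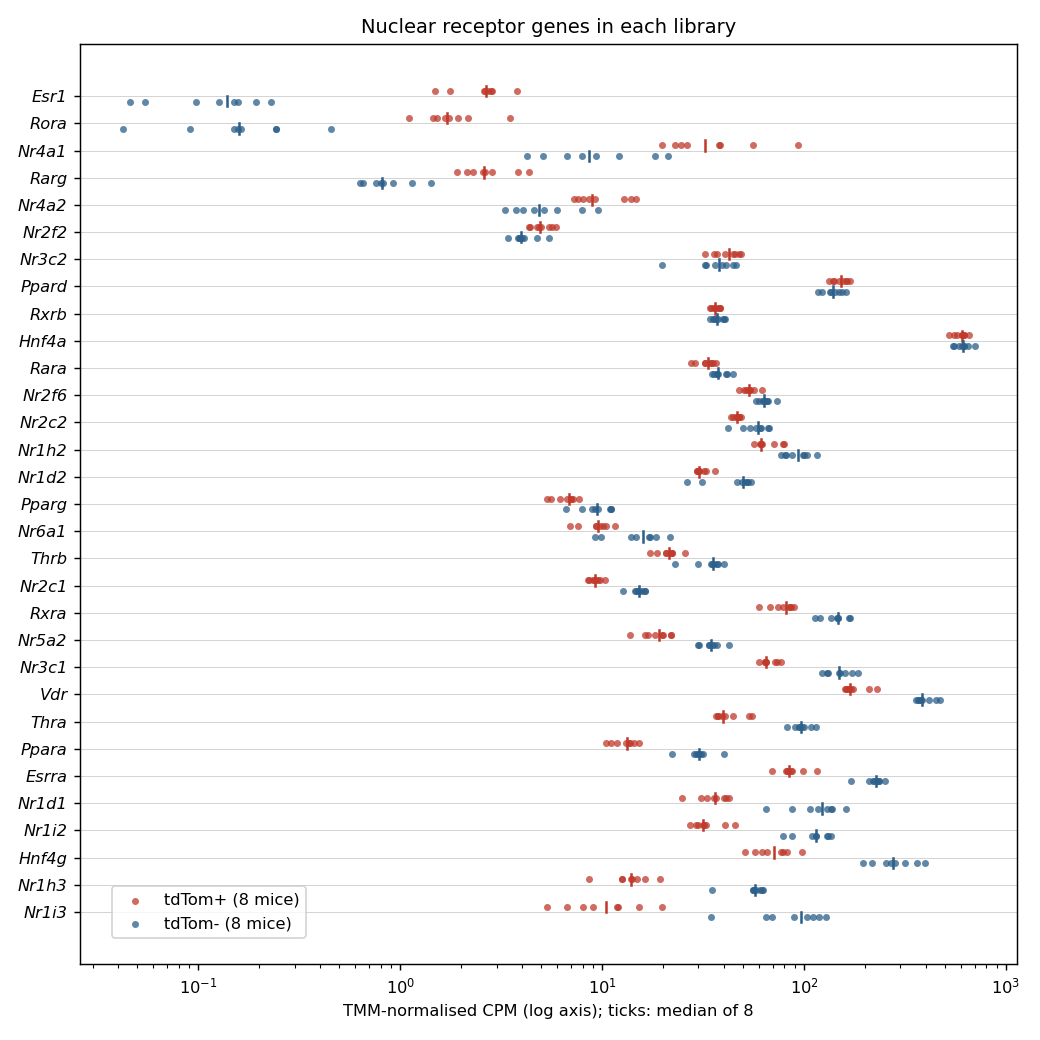
TMM-normalized CPM (x axis, log scale) of the 31 receptor genes (rows, ordered by log2 fold change) in each of the 8 tdTom+ and 8 tdTom- libraries, with a tick at the median of each fraction. Hnf4a lies above 500 CPM in all 16 libraries, and Esr1 and Rora lie below 0.5 CPM in all 8 tdTom- libraries.

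Among the receptors for steroid and thyroid hormones, Esr1, which encodes estrogen receptor alpha, had the largest difference of the list. Its level in tdTom- libraries was 0.0457 CPM at the lowest, 0.139 at the median and 0.228 at the highest. In tdTom+ libraries it was 1.48, 2.67 and 3.79 CPM. The fractions did not overlap, and Esr1 was higher in tdTom+ cells in 8 of 8 mice (log2 fold change 4.21 ± 0.21 (SE), edgeR adjusted p = 8.2e-10). These levels rest on 1 to 5 counts per tdTom- library and 35 to 63 counts per tdTom+ library, so the value in tdTom- cells lies near the floor of 3 counts. Esr1 passed the expression filter only through its tdTom+ libraries. Its adjusted p and lack of overlap therefore describe these values and give no separate support. CreERT2 contains estrogen receptor sequence and is made where Atoh1 is, and Atoh1 was 86.3-fold higher in tdTom+ cells. Counts summed by gene do not separate reads of Esr1 from transgene reads aligned to it, and the share of such reads was not tested.

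The other steroid and thyroid hormone receptors were lower in tdTom+ cells or did not pass. Nr3c1, the glucocorticoid receptor, stood at 67.3 ± 5.69 and 150.1 ± 21.6 CPM, a log2 fold change of -1.15 ± 0.06 (SE). The mineralocorticoid receptor Nr3c2 stood at 41.5 ± 5.94 and 36.5 ± 8.38 CPM and did not pass (edgeR adjusted p = 0.089). Thra and Thrb encode the thyroid hormone receptors, and both were lower in all 8 mice. Thra stood at 43.1 ± 7.41 and 97.8 ± 10.2 CPM (log2 fold change -1.19) and Thrb at 21.2 ± 2.50 and 34.1 ± 5.42 CPM (log2 fold change -0.68). Thra and Nr1d1 overlap on opposite strands of chromosome 11, and the counting used strand.

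Genes listed as targets of the glucocorticoid receptor did not move as a single group. Of 8 listed, 4 were higher, 2 were lower and 2 were below the filter, against 25.8% higher and 30.0% lower of all genes. The median log2 fold change was 0.65. Cyp11b1, below the filter, is also listed among the Nr5a2 (LRH-1) targets. Sgk1, a kinase of sodium transport, fell by 2.38 on the log2 scale, and Tsc22d3, which encodes the leucine zipper protein GILZ, fell by 0.95. The phosphatase gene Dusp1 rose by 1.66 and the Krüppel-like factor Klf9 by 0.91. Dusp1 is also an immediate-early gene and appears in both lists. The period gene Per1, which rose by 0.76, is counted both here and among the clock genes below.

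Receptors for lipids and energy metabolism made up 9 of the 31, and 7 were lower in tdTom+ cells, none was higher and 2 did not pass. Counts in this and the following receptor groups are to be read against the 25.8% higher and 30.0% lower of all genes. Hnf4a, a master regulator of the absorptive epithelium, did not pass, with 521 CPM at the lowest, 605 at the median and 653 at the highest in tdTom+ libraries and 545, 611 and 700 CPM in tdTom- libraries. Its log2 fold change was -0.04 ± 0.06 (SE; edgeR adjusted p = 0.613), and it was lower in 5 of 8 mice. Its close relative Hnf4g behaved differently. In tdTom+ libraries Hnf4g ranged from 50.8 through a median of 71.1 to 98.2 CPM, and in tdTom- libraries from 195 through 276 to 398 CPM. The highest tdTom+ library lay below the lowest tdTom- library (log2 fold change -2.00 ± 0.08 (SE), edgeR adjusted p = 8.03e-11).

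The liver X receptors, which respond to oxysterols, also differed in degree. Nr1h3 (LXR alpha) ran from 8.62 through 14.0 to 19.3 CPM in tdTom+ libraries and from 35.0 through 57.2 to 62.8 CPM in tdTom- libraries. It was lower in 8 of 8 mice without overlap (log2 fold change -2.00 ± 0.08 (SE), edgeR adjusted p = 1.28e-10), and the lowest tdTom- library was that of mouse 7. Nr1h2 (LXR beta), the widely expressed form, stood at 66.2 ± 8.78 and 93.0 ± 13.8 CPM, and its libraries overlapped (log2 fold change -0.49).

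The 3 peroxisome proliferator-activated receptors each gave another result. Ppara, the fatty acid oxidation regulator, stood at 12.9 ± 1.64 and 30.3 ± 4.87 CPM (log2 fold change -1.22), without overlap. Pparg stood at 6.59 ± 0.814 and 9.44 ± 1.61 CPM, lower in 8 of 8 mice but overlapping (log2 fold change -0.51). Ppard, the most abundant of them in both fractions per length, did not pass at 151 ± 12.8 and 139.9 ± 15.1 CPM (log2 fold change 0.11 ± 0.06 (SE), edgeR adjusted p = 0.125). Without mouse 6 Ppard passed as higher (log2 fold change 0.17, edgeR adjusted p = 0.00966), and without mouse 3 its value was 0.20. Esrra, which controls mitochondrial genes together with the coactivator PGC-1 alpha, was lower without overlap at 88.1 ± 14.0 and 222 ± 24.1 CPM (log2 fold change -1.34). Nr5a2 (LRH-1), a crypt and bile acid regulator, was lower at 18.6 ± 2.88 and 34.7 ± 4.06 CPM (log2 fold change -0.90).

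Receptors for vitamins and xenobiotics numbered 7, of which 5 were lower, 1 was higher and 1 did not pass. Nr1i3 (CAR), a sensor of foreign compounds that induces cytochrome P450 genes, had the largest decrease of the 31. It ranged from 5.31 through 10.4 to 19.8 CPM in tdTom+ libraries and from 34.6 through 96.7 to 129 CPM in tdTom- libraries. No libraries overlapped and it was 8.24-fold lower in tdTom+ cells (log2 fold change -3.04 ± 0.11 (SE), edgeR adjusted p = 2.98e-11). Nr1i2 (PXR), the related pregnane and drug receptor, ran from 27.3 through 31.8 to 45.6 CPM in tdTom+ libraries and from 78.8 through 115 to 136 CPM in tdTom- libraries. It too did not overlap (log2 fold change -1.74 ± 0.09 (SE), edgeR adjusted p = 6.24e-10). Vdr, the vitamin D receptor, stood at 179.5 ± 26.1 and 399 ± 41.4 CPM (log2 fold change -1.16), and Rxra, the shared dimer partner, at 78.2 ± 10.2 and 144 ± 19.8 CPM (log2 fold change -0.88), both without overlap. The second partner gene, Rxrb, did not pass at 36.5 ± 1.65 and 37.5 ± 2.38 CPM (edgeR adjusted p = 0.501).

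The retinoic acid receptors were the pair of relatives called in opposite directions. Rarg ranged from 1.90 through 2.59 to 4.33 CPM in tdTom+ libraries and from 0.629 through 0.812 to 1.42 CPM in tdTom- libraries. It was higher in tdTom+ cells in 8 of 8 mice without overlap (log2 fold change 1.63 ± 0.18 (SE), edgeR adjusted p = 3.34e-06). Rara, much the more abundant of them, ranged from 27.6 through 33.5 to 36.8 CPM in tdTom+ libraries and from 35.0 through 37.4 to 44.5 CPM in tdTom- libraries. It was lower in 8 of 8 mice with overlapping libraries (log2 fold change -0.24 ± 0.05 (SE), edgeR adjusted p = 0.00165), and the call was lost without mouse 3 (edgeR adjusted p = 0.0212). Per length Rara still held 91.7% ± 1.84 of the summed Rara and Rarg level in tdTom+ and 97.6% ± 0.571 in tdTom- cells (SD, n = 8 each).

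The stretches 250 bases upstream of a RefSeq transcript start are shown for Esr1 and Rarg, which marked tdTom+ cells, and for Nr1i3, which had the largest decrease, at windows that hold an E-box of the kind that Atoh1-type factors read. Rxra and Nr2c1, which marked tdTom- cells, also have a window with this E-box, and the other receptors that marked a fraction and had a window, Rora among them, held none there. The capitals mark that E-box, CAGCTG or CAGATG, the latter printed as CATCTG where it lies on the other strand. The sequences are from RefSeq on GRCm38.p6, 5′ to 3′ on the strand of the gene, at chr10:4709908-4710157 (+) for Esr1, chr15:102246501-102246750 (-) for Rarg and chr1:171213720-171213969 (+) for Nr1i3. Esr1 and Rarg have further annotated starts.
Esr1: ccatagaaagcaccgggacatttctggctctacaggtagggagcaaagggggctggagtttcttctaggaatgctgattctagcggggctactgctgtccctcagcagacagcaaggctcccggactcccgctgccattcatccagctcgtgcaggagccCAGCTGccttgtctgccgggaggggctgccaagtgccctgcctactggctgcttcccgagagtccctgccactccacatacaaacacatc
Rarg: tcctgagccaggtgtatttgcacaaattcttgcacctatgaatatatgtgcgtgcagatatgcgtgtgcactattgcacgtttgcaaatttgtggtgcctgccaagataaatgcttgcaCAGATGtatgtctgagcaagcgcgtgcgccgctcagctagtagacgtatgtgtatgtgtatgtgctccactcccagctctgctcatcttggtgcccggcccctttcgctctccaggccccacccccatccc
Nr1i3: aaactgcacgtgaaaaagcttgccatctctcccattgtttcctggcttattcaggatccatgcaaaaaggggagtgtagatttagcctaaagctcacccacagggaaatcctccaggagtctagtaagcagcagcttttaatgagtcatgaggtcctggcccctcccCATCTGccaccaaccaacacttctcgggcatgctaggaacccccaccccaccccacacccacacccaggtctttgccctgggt

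In the whole list the share of windows with this E-box was near that of all genes. It was found on either strand in 10 of 42 windows of the 28 receptors with an annotated window (23.8%), against 25.5% of all 32851 windows of the same length. The receptor half-site AGGTCA, searched on both strands, was found in 8 of the 42 (19.0%), against 14.0% of all windows. A match is a description of the letters only, and the E-box occurred upstream of receptors called in either direction.

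The clock and immediate-early receptors held 3 of the 5 receptors that were higher in tdTom+ cells. Rora, an activator of the clock gene Arntl that is also active in lymphoid cells, ranged from 1.10 through 1.70 to 3.51 CPM in tdTom+ libraries and from 0.0422 through 0.160 to 0.456 CPM in tdTom- libraries. Without overlap, it was higher in 8 of 8 mice (log2 fold change 3.29 ± 0.23 (SE), edgeR adjusted p = 2.24e-08). The tdTom- values rest on 1 to 10 counts and the tdTom+ values on 18 to 70 counts per library. Rora, too, passed the expression filter only through its tdTom+ libraries, so its adjusted p and lack of overlap are descriptive as well. Of the 8 immune markers, 6 were lower in tdTom+ cells (against 30.0% of all genes), Ptprc did not pass, and Lyz2, a lysozyme gene, was higher. The T cell gene Cd3e, for example, stood at 0.597 ± 0.338 and 2.19 ± 2.39 CPM. The summed immune markers of tdTom- libraries ranged from 67.9 CPM in mouse 2 to 1244 CPM in mouse 7. Mouse 5 was next highest, at 1016 CPM. In tdTom+ libraries the sum, which includes Lyz2, ranged from 1655 CPM in mouse 5 to 3828 CPM in mouse 7. Rora was highest in mouse 7 in both fractions, at 3.51 and 0.456 CPM, and stood at 1.74 and 0.0913 CPM in mouse 5. Whether the Rora counts came from immune cells was not tested.

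Nr4a1 (NUR77), an orphan receptor induced within minutes to hours of a stimulus, varied widely between mice. It ran from 19.7 through 32.2 to 93.8 CPM in tdTom+ libraries and from 4.23 through 8.64 to 21.2 CPM in tdTom- libraries. The fractions overlapped over the mice, but tdTom+ was the higher fraction within each of the 8 (log2 fold change 1.92 ± 0.13 (SE), edgeR adjusted p = 1.17e-08). Nr4a2 (NURR1), its relative, ran from 7.24 through 8.89 to 14.7 CPM in tdTom+ libraries and from 3.29 through 4.88 to 9.50 CPM in tdTom- libraries. It was higher in 7 of 8 mice, mouse 8 being the exception (log2 fold change 0.91 ± 0.15 (SE), edgeR adjusted p = 1.47e-04).

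Nr1d1 (REV-ERB alpha), a repressor within the circadian clock, ran from 24.8 through 36.2 to 42.5 CPM in tdTom+ libraries and from 64.5 through 123 to 161 CPM in tdTom- libraries. The fractions did not overlap (log2 fold change -1.69 ± 0.11 (SE), edgeR adjusted p = 8.99e-09). Its partner Nr1d2 (REV-ERB beta) stood at 31.2 ± 2.27 and 45.5 ± 10.6 CPM, with overlap (log2 fold change -0.51). In tdTom- libraries Nr1d2 was lowest in mouse 7, at 26.4 CPM, and mouse 8, at 31.3 CPM, and the call was lost without mouse 3 (edgeR adjusted p = 0.01515).

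These genes are known to follow the hour or an acute stimulus, so it was asked whether the level in one fraction followed that in the other over the 8 mice. The family held 7 genes, with exact two-sided permutation p-values adjusted by the Benjamini-Hochberg method and a threshold of 0.05. For Nr4a1 Pearson's r of log2 CPM was 0.86 (exact p = 0.00518, adjusted 0.0181) and Spearman's rho 0.86 (exact p = 0.0107, adjusted 0.0375). Without mice 7 and 8, the farthest from the median, r was 0.88. Fos, the classic immediate-early gene, gave r = 0.91 (exact p = 0.0034, adjusted 0.0181) and rho = 0.93 (exact p = 0.00223, adjusted 0.0156), and r = 0.62 without mice 1 and 7. Arntl, which encodes the clock activator BMAL1, gave r = 0.81 (exact p = 0.0106, adjusted 0.0247) and rho = 0.79 (exact p = 0.0279, adjusted 0.0652). The correlations of Fos and Arntl no longer passed with scaling by total counts, at r = 0.844 and 0.766 (exact permutation, adjusted p = 0.0513 each). The other 4 genes did not pass that threshold, nor did rho for Arntl. Nr1d1 gave r = 0.49 (exact p = 0.219, adjusted 0.245; rho = 0.33, exact p = 0.428, adjusted 0.499) and Nr1d2 gave r = 0.44 (exact p = 0.245, adjusted 0.245; rho = 0.69, exact p = 0.0694, adjusted 0.121). Nr3c1 gave r = 0.57 (exact p = 0.139, adjusted 0.194; rho = 0.40, exact p = 0.327, adjusted 0.458) and Dbp r = 0.71 (exact p = 0.0537, adjusted 0.094; rho = 0.29, exact p = 0.501, adjusted 0.501). For Nr1d1, Nr3c1 and Dbp the relation rested on the 2 farthest mice, and for Nr1d2 r was 0.72 without mice 7 and 8. The labels give no time of collection. Genes outside this family were not examined in this way. Over all genes tested, same-mouse libraries deviated together from their group means (mean correlation 0.43, against -0.06 between different mice). A relation between fractions was therefore not shown to be particular to these genes.

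**Figure D3:**
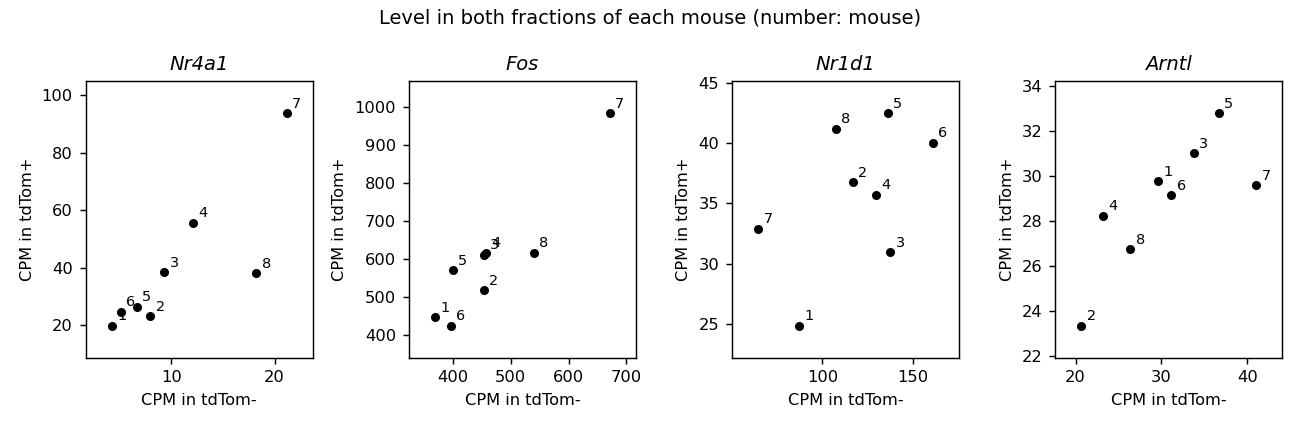
TMM-normalized CPM in tdTom+ (y axis) against tdTom- cells (x axis) of each mouse for Nr4a1, Fos, Nr1d1 and Arntl, with points numbered by mouse. Mouse 7 is highest in both fractions for Nr4a1 and Fos and lowest in tdTom- cells for Nr1d1.

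The wider clock and immediate-early lists moved in both directions, in shares to be read against the 25.8% higher and 30.0% lower of all genes. Of 15 clock genes 3 were higher, 7 lower, 3 not passed and 2 below the filter, with a median log2 fold change of -0.33. The output factors Hlf and Dbp fell by 2.80 and 2.75 on the log2 scale, Tef fell by 1.35 and the period gene Per2 by 0.93, whereas Arntl did not pass (log2 fold change -0.05). Of 12 immediate-early genes 7 were higher, 1 was lower and 4 did not pass, with a median of 0.52. Dusp1 rose by 1.66, Fosb by 1.31, Atf3 by 0.98 and Egr1 by 0.89, and Jun, at 512 ± 174 and 490 ± 95.9 CPM, did not pass.

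Among the 5 other orphans, 4 were lower by small amounts and 1 did not pass. Nr2c1 (TR2), a DNA-binding repressor, was the one without overlap, at 9.28 ± 0.603 and 15.1 ± 1.16 CPM (log2 fold change -0.70). Nr6a1, a germ cell factor, stood at 9.38 ± 1.5 and 15.3 ± 4.25 CPM (log2 fold change -0.68). Nr2c2 (TR4) had a log2 fold change of -0.29 and Nr2f6 of -0.26, and both calls were lost without mouse 3 (edgeR adjusted p = 0.0676 and 0.0287). Nr2f2 (COUP-TFII), known mainly from mesenchyme, vessels and some endocrine cells, was the nearest to the threshold of those that did not pass. It stood at 5.04 ± 0.575 and 4.18 ± 0.647 CPM and was higher in 8 of 8 mice (log2 fold change 0.28 ± 0.09 (SE), edgeR adjusted p = 0.0133), and without mouse 3 it passed (adjusted p = 0.00312).

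The balance of related receptors was compared within each library, where the ratio of counts of both genes does not depend on scaling between libraries. In each of 12 pairs the ratio differed between fractions in the same direction in 8 of 8 mice, with an exact two-sided sign-flip p of 0.00781, the smallest that 8 mice can give (adjusted 0.00781 over the 12, threshold 0.05). The largest shifts were toward Hnf4a over Hnf4g in tdTom+ cells, by 1.96 ± 0.258 on the log2 scale (SD, n = 8), and toward Rarg over Rara, by -1.86 ± 0.525 for Rara over Rarg. Per length Hnf4a made up 82.0% ± 3.06 of the summed HNF4 level in tdTom+ cells and 54.1% ± 7.15 in tdTom- cells. Nr1h2 over Nr1h3 shifted by 1.52 ± 0.355, and the share of Nr1h2 was 78.0% ± 4.02 and 55.5% ± 4.59. Nr3c1 over Nr3c2 shifted by -1.36 ± 0.286, Ppara over Ppard by -1.34 ± 0.159, Nr1i2 over Nr1i3 by 1.31 ± 0.176 and Nr1d1 over Nr1d2 by -1.19 ± 0.115. The remaining pairs shifted by less than 1 on the log2 scale, down to -0.41 ± 0.174 for Nr2c1 over Nr2c2. Members of a pair called in the same direction thus still differed in how much they changed. Pairs of other genes were not compared, and 55.8% of all genes tested were called between the fractions. A ratio that differs was therefore not shown to be particular to related receptors, and the shared p does not rank the pairs.

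**Figure D4:**
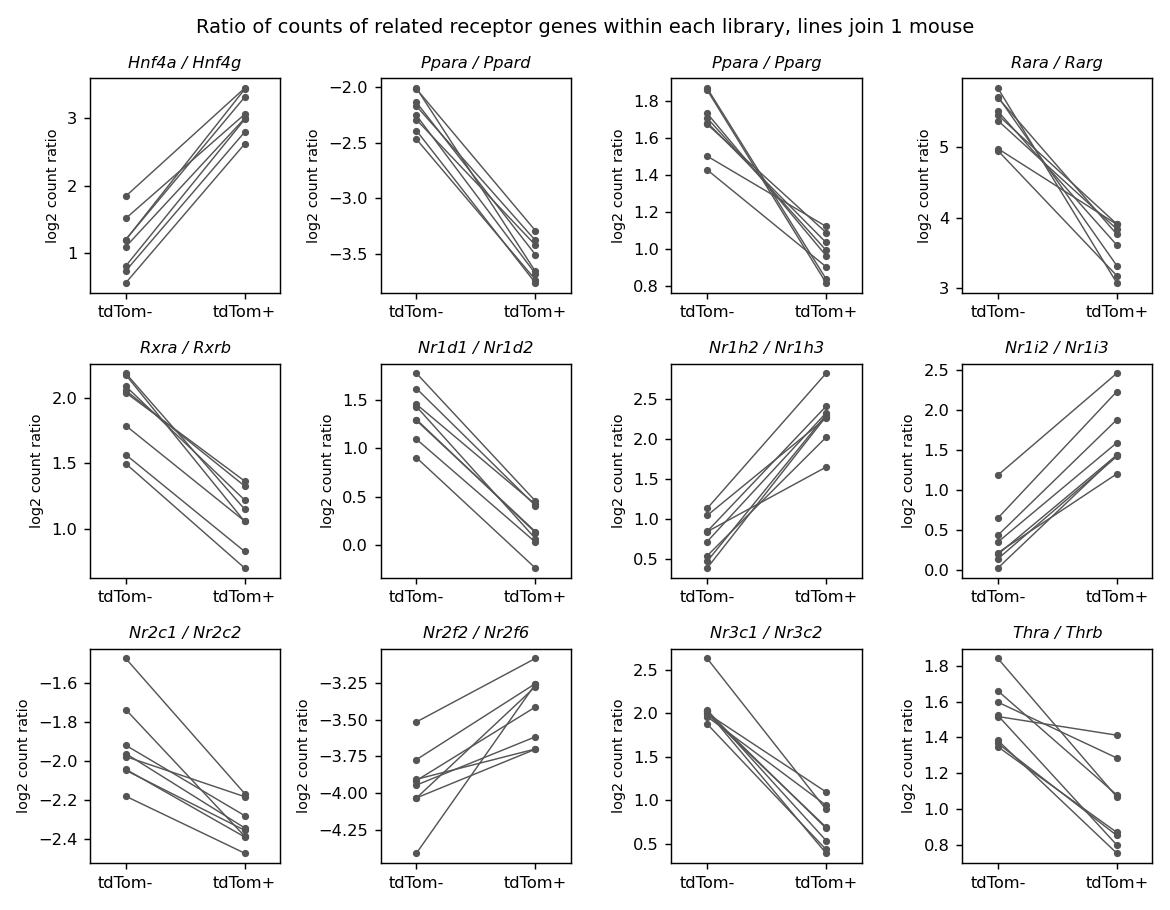
Log2 ratio of the counts of related receptor genes within each library (y axis) in tdTom- and tdTom+ cells (x axis), 1 panel per pair, with a line for each of the 8 mice. In every panel all 8 lines run in the same direction, upward for Hnf4a over Hnf4g, Nr1h2 over Nr1h3, Nr1i2 over Nr1i3 and Nr2f2 over Nr2f6 and downward for the other 8.

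The 18 receptor genes of the family outside the list were mostly not detected at a usable level. The filter removed 12 of them, including Esr2, Pgr, Rarb and Rxrg, each with a mean under 0.1 CPM in both fractions. Of the 6 tested, Nr0b2 (SHP), a repressor induced by bile acids, was lower at 0.520 ± 0.322 and 3.13 ± 1.64 CPM (log2 fold change -2.53). Nr1h4 (FXR, the bile acid receptor) was lower with a log2 fold change of -0.66. Nr4a3, Esrrg and Nr2e3 did not pass (edgeR adjusted p = 0.0529, 0.0161 and 0.289).

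Coregulators, the proteins through which receptors act on transcription, moved in both directions, in shares to be read against the 25.8% higher and 30.0% lower of all genes. Of 12 coactivator genes 3 were higher, 5 lower and 4 did not pass, with a median log2 fold change of -0.02. Ppargc1a, which encodes PGC-1 alpha, fell by 2.36 on the log2 scale and Ppargc1b by 0.99, whereas their relative Pprc1 rose by 0.67 and Ncoa3 by 0.54. Of 10 corepressor genes 1 was higher, 3 lower and 6 did not pass, with a median of -0.14. Ncor1, a corepressor that binds receptors without ligand, fell by 0.83, Nrip1 by 0.58 and the deacetylase gene Hdac3 by 0.41.

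Known target genes were lower in tdTom+ cells for most of the metabolic receptors, and several are themselves enterocyte genes, with Apoa4 in the absorptive marker list as well. Whether their levels followed the receptors or the share of absorptive cells was not tested. Counts in these and the further target lists below are again to be read against the 25.8% higher and 30.0% lower of all genes. Of 12 PPAR targets 10 were lower, none higher and 2 did not pass, with a median log2 fold change of -1.43. The fatty acid transporter Cd36 fell by 3.06, Cyp4a10 by 2.97 and Angptl4 by 1.81. All 10 targets of PXR and CAR were lower, with a median of -2.74, led by the drug-metabolizing genes Cyp3a11 at -3.36, Cyp3a25 at -3.32, Cyp2c55 at -3.18 and Cyp2b10 at -3.12.

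HNF4 targets were lower for 7 of 8 genes, with a median log2 fold change of -2.71. Of the HNF4 genes themselves, Hnf4a did not pass and Hnf4g was lower without overlap (log2 fold change -2.00). The apolipoprotein genes Apoa4, Apoc3, Apoa1 and Apob had values of -3.65, -3.62, -3.56 and -2.84. Ttr, the thyroid hormone and retinol carrier, was the gene of that list that was higher, at 14.8 ± 1.99 and 3.58 ± 1.06 CPM. LXR targets split, with 5 of 8 lower and 3 higher and a median of -1.15. The cholesterol exporters Abca1, Abcg5 and Abcg8 had values of -2.33, -2.09 and -1.77, while Abcg1 rose by 3.38 from 0.50 ± 0.148 to 5.31 ± 1.53 CPM.

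Of 6 vitamin D receptor targets 4 were lower, with a median of -2.61, and Cyp24a1 and Trpv6 were below the filter. Cyp3a11, among the 4 lower genes here, is also counted in the PXR and CAR list. The manganese exporter Slc30a10 fell by 3.48 and the calcium-binding protein gene S100g by 1.86. Of 8 retinoic acid receptor targets 3 were lower, 1 did not pass and 4 were below the filter, with a median of -0.48, and Dhrs3, a retinaldehyde reductase, fell by 1.19. Of 5 LRH-1 targets Nr0b2 was lower, 2 did not pass and 2 were below the filter, with a median of 0.17.

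**Figure D5:**
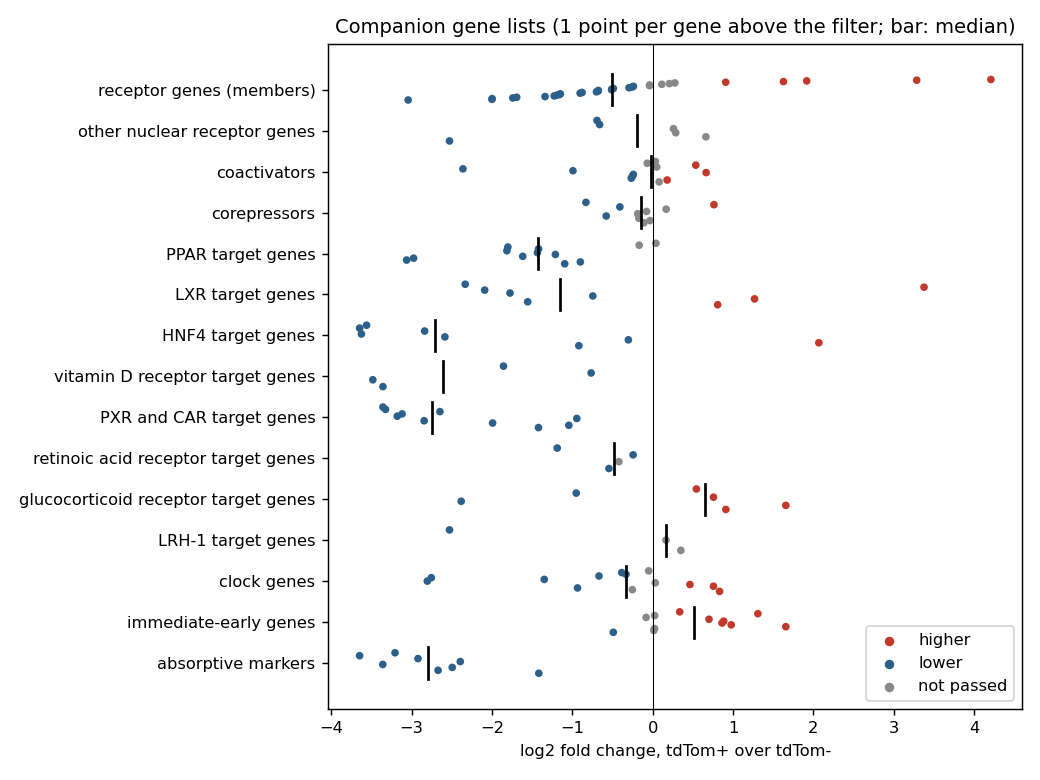
Log2 fold change of tdTom+ over tdTom- cells (x axis) for each gene above the filter in the receptor list and 14 companion lists (rows), colored by edgeR call, with a bar at the median. The PXR and CAR, vitamin D receptor and absorptive marker lists hold lower genes only, whereas the LXR, glucocorticoid receptor, clock and immediate-early lists hold genes on both sides.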

How the data were processed

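RNA was sequenced from 8 tdTom+ and 8 tdTom- libraries, and the group of each came from its label. The authors deposited raw counts per Ensembl gene. Per the submitters' processing notes, reads were aligned with TopHat2 2.1.1 to GRCm38.p3 and counted with Subread 1.5.2, whereas the file headers name featureCounts 1.5.0-p1, run on the reverse strand. Symbols came from a reference table that matched 44585 of 45513 identifiers.

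Counts were analyzed in R 4.3.3 with edgeR 4.0.16: filterByExpr by fraction (15323 genes), TMM scaling, and the quasi-likelihood test with the mouse as block, Benjamini-Hochberg adjusted over all genes tested, with a threshold of 0.01. The scripts were tested on simulated data. The pairing rests on the animal number in the titles and on the design, which takes both fractions from each mouse. Same-mouse libraries deviated together from their group means (mean correlation 0.43, 0.24 to 0.63 over the 8 pairs, against -0.06 between different mice). RPKM used the exon lengths in the files. Pair ratios used a pseudocount of 0.5, correlations a prior count of 2. No sequencing batch was given, so none could be examined.

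All 31 members are named. Values per library are given for the 5 largest and 5 smallest log2 fold changes among called members of at least 1 CPM in the higher fraction and for relatives called in opposite directions, and up to 4 genes are named per companion list by absolute log2 fold change, with others named as contrasts after their values were seen. Members and lists were chosen with earlier results of these data known. Alternatives were no replicate block, other scalings and filters, DESeq2 1.42.0, limma-voom (limma 3.58.1), other thresholds, thinned counts and leaving out each mouse. Some genes of the companion lists are counted but not reported here by name.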

Additional observations from a re-analysis of the deposited data

Results flagged for a closer look

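In 4 of 62 sets of 8 libraries (31 receptors in each fraction) 1 library stood apart from the others on the log2 scale, as its gap to the nearest library was large for the range of the set. Chance flags about 1 set in 20. All 4 concerned mouse 7, the lowest tdTom- library. Nr1h3 was at 35.0 CPM there against 55.6 CPM in the next library (gap 0.79 of the range), and Nr3c2 at 19.7 against 32.4 CPM (gap 0.585). Nr2c1 was at 12.7 against 14.6 CPM (gap 0.568) and Esrra at 170 against 211 CPM (gap 0.552). The same library had the lowest sum of absorptive markers, at 12577 CPM, and the highest sum of stem cell markers among tdTom- libraries, at 2837 CPM. Their part in these values was not tested. Without mouse 7 the counts of called receptors were 5 higher and 21 lower, as with it.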

How the results depend on the processing

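Of 587 receptor fits under 19 other settings, 558 kept their direction and side of the threshold. Without the replicate block the same 5 receptors were higher and the same 21 lower (all genes 3473 and 4133), and DESeq2 and limma-voom gave 5 and 21 as well. Leaving out each mouse gave 5 to 6 receptors higher and 17 to 21 lower. Without mouse 3 the median log2 fold change of all genes moved from 0.02 to 0.12, the higher share of calls from 46.2% to 55.5%, and Rara, Nr2f6, Nr2c2 and Nr1d2 were no longer lower. With at least 10 counts in every library the median was 0.12 and the share 57.0%. That filter removed Esr1 and Rora, added Nr2f2 and Ppard as higher, and left 5 higher (3 shared) and 18 lower. Hnf4a and Rxrb, which did not pass, reversed to 0.0813 and 0.0817 with at least 10 counts required, and ranged from -0.0532 to 0.0436 and from -0.0538 to 0.0710 over the mice left out (both highest without mouse 3, and Hnf4a 0.0077 without mouse 7). With a log2 fold change of at least 1 also required, 1740 genes were higher and 1758 lower, among them 4 and 10 receptors, by construction. Without the 2 farthest mice the correlations between fractions became -0.0785 for Nr1d1, -0.0622 for Nr3c1 and -0.1817 for Dbp. Depth limits Esr1 and Rora in tdTom- cells.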
